A study of Mus musculus with 22 samples.

Results

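The genes examined were *Cd80*, *Cd86*, *Icosl*, *Cd274*, *Pdcd1lg2*, *Tnfsf4*, *Tnfsf9*, *Cd70*, *Cd40* and *Havcr2*, which encode surface molecules through which dendritic cells (DCs) exchange signals with T cells. They were chosen by symbol, as 10 of the 34047 genes of the RNA-seq count table. With them went 139 of 177956 ATAC-seq windows, those in peaks whose closest gene within 50000 bases was one of them. The group carries the name costimulatory and checkpoint ligands, but *Cd40* and *Havcr2* encode receptors on the DC side and were kept under the same rule. All cells came from naive *Tbx21* RFP-cre reporter mice of both sexes, 6 to 10 weeks old, that carried the knock-in allele in the homozygous state, so RFP marked cells that express T-bet. Conventional DCs were sorted as CD11c+ MHCII+ cells lacking T cell, B cell and monocyte or macrophage surface markers. They were divided into XCR1+ cDC1s, RFP+ cDC2s (T-bet+ cDC2s) and RFP- cDC2s (T-bet- cDC2s). The spleen gave 3 RNA-seq libraries of each subset, and from the mesenteric lymph nodes (MLN) there were 3 cDC1 libraries and 2 for either cDC2 subset. For ATAC-seq, in which a transposase cuts where chromatin is open, 50000 spleen cells were used per library, with 2 libraries of each subset. Each RNA-seq library pooled cells of a pair of mice, and p-values measure the spread between these libraries.

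A T cell that recognises antigen on a DC also reads costimulatory and inhibitory ligands on that DC. CD80 and CD86 bind the activating receptor CD28 and its inhibitory counterpart CTLA-4, and ICOSL binds ICOS. PD-L1 (*Cd274*) and PD-L2 (*Pdcd1lg2*) bind PD-1 and restrain T cells, whereas the TNF family ligands OX40L (*Tnfsf4*), CD137L (*Tnfsf9*) and CD70 prolong their response and survival. In the other direction, CD40 on the DC receives CD40L from T cells and raises costimulation, and TIM-3 (*Havcr2*) is an inhibitory receptor that also marks some DCs. DCs that mature and migrate to lymph nodes are known to raise many of these molecules together with *Ccr7*, the chemokine receptor that guides them.

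Between 20993220 and 27317480 reads per spleen library and between 22733964 and 29006549 reads per MLN library were counted on genes, and the ATAC-seq windows held 7270164 to 10081555 reads per library. Levels are given as CPM, counts scaled to a common library size and adjusted by TMM over all 16 RNA-seq libraries, in replicate order, and log2 fold changes are given ± SE. The labels were checked on *Tbx21*, which had 23.1, 24.9 and 17.2 CPM in spleen T-bet+ cDC2s and 0.289, 1.54 and 2.38 CPM in T-bet- cDC2s, and in MLN 7.19 and 2.93 against 0.538 and 0.918 CPM. The summed level of 8 cDC1 marker genes was 6487 to 7442 CPM in spleen cDC1s and 149 to 601 CPM in spleen cDC2s, and that of 6 cDC2 markers 40.1 to 56.6 CPM and 1920 to 3386 CPM. Markers of T cells summed to no more than 27.4 CPM in any library. In spleen, 7 B cell markers summed to 56.3 to 104 CPM in cDC1s, 205 to 241 CPM in T-bet- cDC2s and 278 to 337 CPM in T-bet+ cDC2s. Markers of monocytes and macrophages summed to 292 to 446, 1287 to 1703 and 869 to 987 CPM in the same order, and the part of these cells in any result below was not tested. The spleen libraries also fell into 2 classes by how their counts followed the GC content of transcripts. Replicate 3 of cDC1s and replicates 1 and 2 of T-bet- cDC2s formed the lower class, which held no T-bet+ library of the spleen. In MLN the lower class held both T-bet+ libraries and replicate 1 of cDC1s and of T-bet- cDC2s. Of these, T-bet+ replicate 1 and cDC1 replicate 1 had correlations with GC of only -0.0598 and -0.0342, under the cut of 0.1. Classes were set within each tissue, relative to its own libraries, so they are not on a common scale between tissues. In T-bet+ cDC2s class label and tissue coincide, so a class term in the fits of both tissues cannot separate them within the subset. In bulk samples, fewer cells of a type and less RNA per cell cannot be told apart.

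All 10 genes were tested in both tissues, and their levels spanned a wide range. Per kilobase of exon, which allows genes to be compared, *Havcr2* was the highest of the 10 in each splenic subset, with 242 to 340.2 CPM per kb in cDC1s and 125.5 to 195 CPM per kb in T-bet+ cDC2s. In spleen cDC1s *Cd86* came next (156.5 to 215 CPM per kb), apart from *Havcr2* above and *Cd40* below (31.4 to 47.0 CPM per kb). *Cd40*, *Icosl* (18.1 to 46.0 CPM per kb) and *Cd274* (17.4 to 27.6 CPM per kb) followed with ranges that overlapped between neighbours. In both splenic cDC2 subsets the gene below *Havcr2* was *Cd274*, with 67.8 to 125 CPM per kb in T-bet- cDC2s, where its range overlapped that of *Havcr2* (116 to 235 CPM per kb), and 63.8 to 80.7 CPM per kb in T-bet+ cDC2s, where the ranges did not overlap. Below it in T-bet+ cDC2s, the ranges of *Cd40*, *Cd86*, *Icosl* and *Tnfsf9* overlapped between neighbours within 31.5 to 55.2 CPM per kb. In MLN the first place passed to *Cd40* in cDC1s (105 to 184 CPM per kb) and T-bet- cDC2s (153 to 182 CPM per kb) and to *Cd274* in T-bet+ cDC2s (105 to 161 CPM per kb), but in each of these subsets the first and second genes had overlapping ranges. *Tnfsf4* and *Cd70* were at the bottom of the order in most groups. *Tnfsf4* rested on 13 to 153 reads per library and *Cd70* on 7 to 274 reads.

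**Figure D1:**
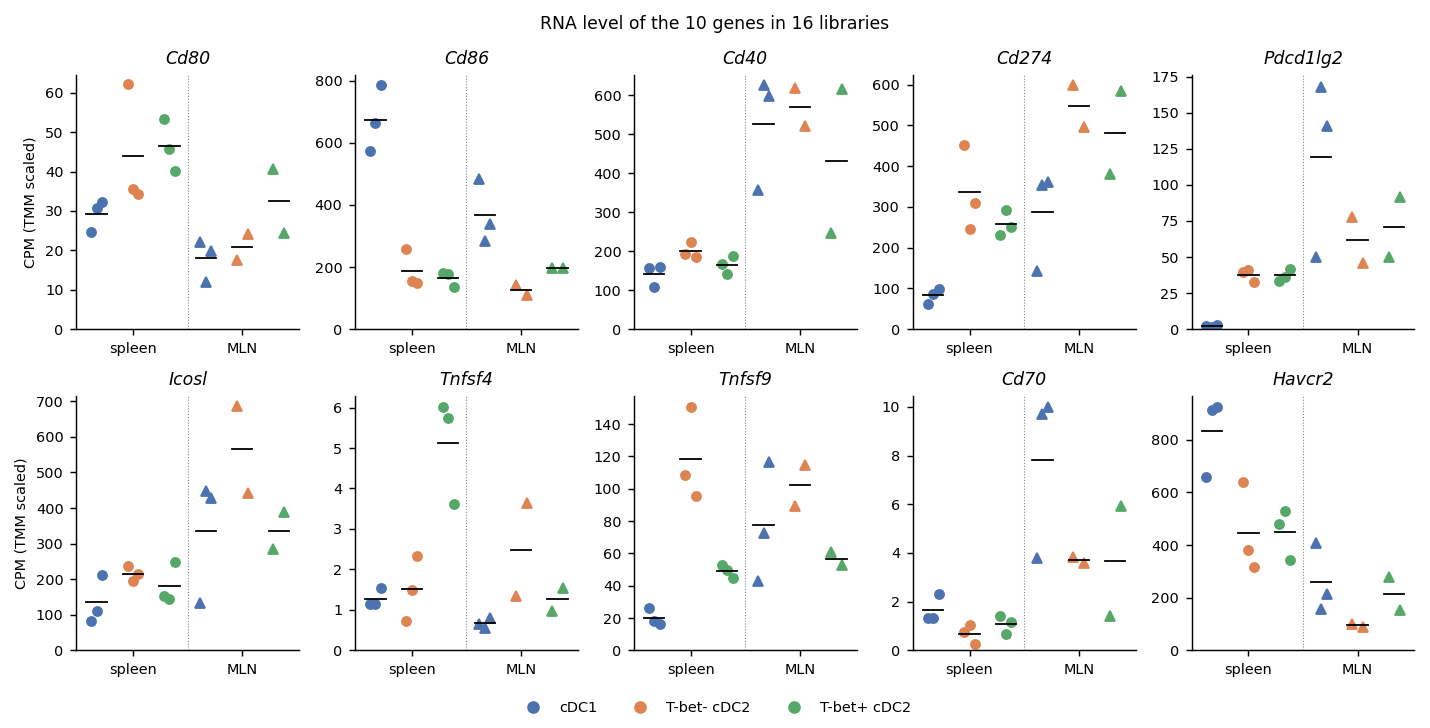
Levels of the 10 genes in CPM (vertical axes, 1 panel per gene) in each RNA-seq library by tissue and subset, with circles for spleen, triangles for MLN and a black bar for the group mean. *Pdcd1lg2* was at most 3.19 CPM in spleen cDC1s and at least 33.0 CPM in every library of the other groups, and *Cd40* was higher in every MLN library than in any spleen library.

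The comparison of splenic subsets asked how T-bet+ cDC2s relate to T-bet- cDC2s and to cDC1s in these signals. Against cDC1s, both cDC2 subsets had more *Cd274*, *Pdcd1lg2* and *Tnfsf9* and less *Cd86*, and T-bet+ cDC2s also had more *Tnfsf4*. Between the cDC2 subsets, *Tnfsf9* was lower in T-bet+ cells. In T-bet+ over T-bet- cDC2s, 1 of the 10 genes passed an adjusted p of 0.05 (0 higher, 1 lower) where 5.38% of the 14377 genes tested passed. In T-bet+ cDC2s over cDC1s, 5 passed (4 higher, 1 lower) against 18.2% of all genes tested, and in T-bet- cDC2s over cDC1s 4 passed (3 higher, 1 lower) against 15.9%. The libraries did not overlap for 2, 7 and 8 of the 10 genes in these comparisons, and for 27.0%, 39.9% and 29.8% of all genes tested. The comparisons with cDC1s share the same cDC1 libraries. The median log2 fold change of the 10 genes was -0.10, 0.55 and 0.55 in the 3 comparisons, with medians over all genes tested of -0.013, 0.034 and -0.011.

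Of the ligands of CD28, CTLA-4 and ICOS, only *Cd86* (chromosome 16, 36603869 to 36666081, minus strand, mm10) passed between cDC1s and cDC2s of the spleen. Its level in spleen cDC1s was 573, 662 and 786 CPM, in T-bet- cDC2s 257, 155.5 and 149 CPM and in T-bet+ cDC2s 181.5, 179 and 135 CPM, so that every cDC1 library was above every cDC2 library and the cDC2 subsets overlapped. *Cd86* was lower than in cDC1s in T-bet+ cDC2s, with a log2 fold change of -2.02 ± 0.26 (adjusted p = 0.000614), and in T-bet- cDC2s, with -1.84 ± 0.26 (adjusted p = 0.00113). Both calls held without each of the 9 spleen libraries in turn. Between the cDC2 subsets the log2 fold change of *Cd86* was -0.18 ± 0.25 (adjusted p = 0.749).

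*Cd80* (chromosome 16, 38455561 to 38496335), the other CD28 and CTLA-4 ligand, ran the other way in its means, at 29.2 ± 4.04 CPM (± SD, n = 3, as in every spleen group) in cDC1s, 44.0 ± 15.7 CPM in T-bet- cDC2s and 46.4 ± 6.54 CPM in T-bet+ cDC2s. It did not pass in any comparison of spleen subsets, with log2 fold changes against cDC1s of 0.67 ± 0.28 (adjusted p = 0.139) in T-bet+ and 0.59 ± 0.28 (adjusted p = 0.204) in T-bet- cDC2s. Within the 6 spleen libraries of the higher GC class, the T-bet+ difference was 0.75 (adjusted p = 0.0491). *Icosl* (chromosome 10, 78069302 to 78083913), which encodes the ligand of ICOS, had 83.8, 111 and 212 CPM in cDC1s, 238, 196 and 213 CPM in T-bet- and 152.5, 146 and 248.5 CPM in T-bet+ cDC2s. The third cDC1 library reached the cDC2 range and the other two did not. *Icosl* did not pass against cDC1s, with 0.43 ± 0.35 (adjusted p = 0.474) in T-bet+ and 0.67 ± 0.35 (adjusted p = 0.251) in T-bet- cDC2s, and without cDC1 replicate 3 the latter was 1.15 (adjusted p = 0.0343). Within the higher GC class the T-bet+ value was 0.91 (adjusted p = 0.0468).

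Both PD-1 ligands were higher in cDC2s than in cDC1s of the spleen. *Pdcd1lg2* (chromosome 19, 29410919 to 29471161), encoding PD-L2, had 2.02, 1.24 and 3.19 CPM in cDC1s, from 30 to 66 reads, 39.5, 41.0 and 33.0 CPM in T-bet- cDC2s and 33.7, 36.5 and 41.7 CPM in T-bet+ cDC2s. No cDC1 library came near a cDC2 library. Its log2 fold change over cDC1s was 4.12 ± 0.36 (adjusted p = 5.79e-05) in T-bet+ and 4.14 ± 0.36 (adjusted p = 5.88e-05) in T-bet- cDC2s, the largest of the 10 genes in both comparisons. *Cd274* (chromosome 19, 29367455 to 29388095), encoding PD-L1, had 63.1, 87.5 and 99.96 CPM in cDC1s, 452.5, 246 and 309.9 CPM in T-bet- and 231, 292 and 250.1 CPM in T-bet+ cDC2s, again with no overlap. It was higher in T-bet+ cDC2s by a log2 fold change of 1.63 ± 0.27 (adjusted p = 0.00261) and in T-bet- cDC2s by 2.01 ± 0.27 (adjusted p = 0.000956). These 4 calls held without each spleen library in turn. T-bet+ and T-bet- cDC2s overlapped for both genes, with log2 fold changes of -0.38 ± 0.26 (adjusted p = 0.496) for *Cd274* and -0.02 ± 0.32 (adjusted p = 0.981) for *Pdcd1lg2*. The annotation places an antisense gene across each of them (AC119228.1 at *Cd274*, A930007I19Rik at *Pdcd1lg2*). Whether the counting used the strand is not stated, so reads of the pairs cannot be told apart.

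Among the TNF family ligands was the 1 gene of the 10 that passed between the splenic cDC2 subsets. *Tnfsf9* (chromosome 17, 57105325 to 57107757), encoding the ligand of CD137, had 26.4, 17.9 and 16.1 CPM in cDC1s, 109, 151 and 95.7 CPM in T-bet- cDC2s and 52.9, 49.5 and 44.6 CPM in T-bet+ cDC2s. The 3 subsets formed a ladder without overlap, with T-bet+ cDC2s between the others. The log2 fold change was 2.56 ± 0.28 (adjusted p = 0.000222) in T-bet- cDC2s over cDC1s, 1.29 ± 0.27 (adjusted p = 0.00831) in T-bet+ cDC2s over cDC1s and -1.27 ± 0.27 (adjusted p = 0.0244) in T-bet+ over T-bet- cDC2s. The first of these held without each library in turn, and the second was lost without cDC1 replicate 2 (1.13, adjusted p = 0.0517). The difference between cDC2 subsets kept its direction without each library (-1.48 to -1.05), but the call was lost on leaving out T-bet+ replicate 1, 2 or 3 (adjusted p = 0.0905, 0.105 and 0.107) or without T-bet- replicate 1 or 2 (0.0563 and 0.0802). With the GC class of the library as a term it was -1.27 (adjusted p = 0.0504). Within the higher class, whose only T-bet- library was replicate 3, it was -0.97. A noncoding gene, Gm11110, overlaps *Tnfsf9* on the other strand.

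*Tnfsf4* (chromosome 1, 161395409 to 161418410), encoding OX40L, went in the opposite direction. It had 1.13, 1.15 and 1.55 CPM in spleen cDC1s, 0.723, 1.49 and 2.34 CPM in T-bet- cDC2s and 6.02, 5.74 and 3.61 CPM in T-bet+ cDC2s. All 3 T-bet+ libraries were above all other spleen libraries, at a level that remained low. The rise over cDC1s passed, with a log2 fold change of 2.00 ± 0.48 (adjusted p = 0.0174), and was lost without T-bet+ replicate 1 or 2 (1.87, adjusted p = 0.0645, and 1.91, 0.0605) or without cDC1 replicate 1 or 2 (1.88, 0.0642, and 1.85, 0.08). Over T-bet- cDC2s the log2 fold change was 1.75 ± 0.48 (adjusted p = 0.0684), which did not pass. T-bet- replicate 3, with 2.34 CPM, was the highest of its group, and without it the value was 2.13 (adjusted p = 0.0366). DESeq2 gave 1.71 (0.0109), a minimum of 10 counts in every library 1.75 (0.0431) and edgeR's newer quasi-dispersion estimate, tried after the data were seen, 1.72 (0.0361). A term for the GC class gave 1.58 (adjusted p = 0.173). The higher class alone, with T-bet- replicate 3 as its only T-bet- library, gave 1.12. *Cd70* (chromosome 17, 57145997 to 57149777, minus strand), the ligand of CD27, stayed at or below 2.32 CPM in every spleen library and passed in no comparison there.

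Of the receptors, *Havcr2* (chromosome 11, 46454935 to 46481255) was highest in spleen cDC1s at 658, 914 and 926 CPM, against 638, 381 and 317 CPM in T-bet- and 481, 531 and 342 CPM in T-bet+ cDC2s. Every cDC1 library was above every cDC2 library, by a narrow margin in T-bet- cDC2s. The log2 fold changes against cDC1s, -0.88 ± 0.29 (adjusted p = 0.0662) in T-bet+ and -0.90 ± 0.29 (adjusted p = 0.0674) in T-bet- cDC2s, did not pass. DESeq2 put both past the threshold (adjusted p = 0.0338 and 0.0433), as did leaving out T-bet- replicate 1 (0.0287 and 0.0164). For T-bet+ cDC2s, leaving out T-bet- replicate 3 had the same effect (0.0321). Within the higher GC class the T-bet+ value passed as well (-0.80, adjusted p = 0.0329). The T-bet- value there was -1.30, from T-bet- replicate 3 alone, the lowest T-bet- library for *Havcr2*. *Cd40* (chromosome 2, 165055627 to 165072948) had 141 ± 29.4 CPM in cDC1s, 200.4 ± 20.4 CPM in T-bet- and 165 ± 23.5 CPM in T-bet+ cDC2s, and it passed in none of the comparisons of spleen subsets. Its log2 fold change was -0.28 ± 0.21 (adjusted p = 0.55) between the cDC2 subsets.

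**Figure D2:**
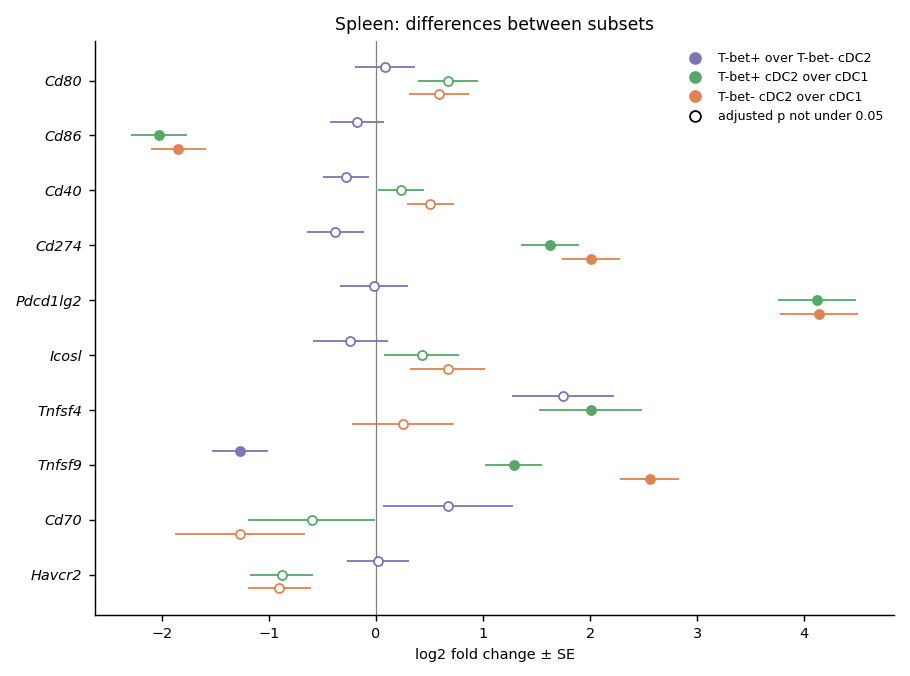
Log2 fold change (horizontal axis) ± SE of each of the 10 genes in the 3 comparisons of splenic subsets, with filled points for an adjusted p under 0.05. *Pdcd1lg2* lay above 4 in both comparisons with cDC1s, *Cd86* near -2 in both, and *Tnfsf9* was the only filled point between the cDC2 subsets.

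In MLN, T-bet+ and T-bet- cDC2s did not differ in any of the 10 genes past the threshold, and none of the 15298 genes tested passed there (0.0%) with edgeR. At an unadjusted p under 0.05 there were 1444 genes of all and 0 of the 10, and DESeq2 called 392 genes of all and 0 of the 10. The libraries of the cDC2 subsets did not overlap for 5 of the 10 and for 40.9% of all genes tested, each group holding 2 libraries. *Tnfsf9* had 60.9 and 52.8 CPM in T-bet+ and 89.6 and 115 CPM in T-bet- cDC2s. The difference on the log2 scale was -0.88 ± 0.41 (adjusted p = 0.569) with the sign found in spleen. *Tnfsf4* had 0.979 and 1.54 CPM in T-bet+ and 1.34 and 3.63 CPM in T-bet- cDC2s, and its log2 fold change of -0.99 ± 0.65 (adjusted p = 0.707) had the sign opposite to that in spleen. *Havcr2* had 279 and 151 CPM against 100.2 and 90.2 CPM (1.14 ± 0.51 (adjusted p = 0.551)).

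Against MLN cDC1s, 0 of the 10 genes passed in T-bet+ cDC2s, where 6.22% of all genes passed, and 4 did not overlap, where 40.2% of all genes did not. Of the 10, 2 had an unadjusted p under 0.05 there, and DESeq2 called 0 of them. With the number in the library name as a block, *Cd80*, *Cd86* and *Cd274* passed there (adjusted p = 0.0282, 0.0389 and 0.0221). In T-bet- cDC2s 1 passed (0 higher, 1 lower), where 5.79% of all genes passed, and 4 did not overlap, where 39.8% of all genes did not. The gene that passed was *Cd86*, with 484, 283 and 338 CPM in MLN cDC1s, 142 and 109 CPM in T-bet- cDC2s and 196 and 198 CPM in T-bet+ cDC2s. Every cDC1 library was above every cDC2 library, as in spleen. Its log2 fold change in T-bet- cDC2s was -1.50 ± 0.34 (adjusted p = 0.0423), and it was lost without any 1 of the 5 libraries compared (T-bet- replicate 1 or 2, adjusted p = 0.173 and 0.224; cDC1 replicate 1, 2 or 3, 0.0514, 0.0507 and 0.0951), while the log2 fold change stayed between -1.74 and -1.21. In T-bet+ cDC2s it was -0.89 ± 0.33 (adjusted p = 0.165). As in spleen, *Cd274* was higher in every cDC2 library than in every cDC1 library, without passing. It had 144, 355 and 362 CPM in cDC1s, 598 and 497 CPM in T-bet- and 381 and 583 CPM in T-bet+ cDC2s (1.02 ± 0.41 (adjusted p = 0.217) and 0.80 ± 0.41 (adjusted p = 0.301) over cDC1s). *Pdcd1lg2* had 50.1, 168 and 141 CPM in cDC1s, 77.7 and 46.0 CPM in T-bet- and 49.9 and 91.5 CPM in T-bet+ cDC2s, and its log2 fold changes over cDC1s were -0.86 ± 0.52 (adjusted p = 0.429) and -0.71 ± 0.52 (adjusted p = 0.468).

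The same subset was then compared between tissues. In MLN, *Cd40* was higher in all 3 subsets and *Havcr2* lower in cDC1s and T-bet- cDC2s, and cDC1s had the most of the 10 genes past the threshold. MLN gave 3 cDC1 libraries and 2 of either cDC2 subset, so counts of passing genes do not rank the subsets. Of the 10, 7 passed in cDC1s (5 higher in MLN, 2 lower), 3 in T-bet- cDC2s (2 higher, 1 lower) and 1 in T-bet+ cDC2s (1 higher, 0 lower). The shares of all 16795 genes tested were 11.7%, 5.95% and 5.09%, and 9, 8 and 7 of the 10 genes did not overlap between tissues, against 29.2%, 40.1% and 49.9% of all genes. The median log2 fold change of the 10 was 1.54, 0.71 and 0.57, with medians of 0.015, -0.043 and 0.003 over all genes. The tissues cannot be told apart from any difference in sequencing run between them. Markers of other cells also differed between tissues, and their part in these results was not tested. In MLN, markers of monocytes and macrophages summed to 266.8 to 306.6 CPM in cDC1s, 704.6 to 880.5 CPM in T-bet- and 456.1 to 721.5 CPM in T-bet+ cDC2s and in both cDC2 subsets lay below the spleen ranges. The cDC2 markers summed to 692.9 to 929.5 CPM in MLN T-bet- and 628.3 to 1511 CPM in MLN T-bet+ cDC2s, ranges that overlap those of the monocyte and macrophage markers. Sums over lists of different genes share no scale, so this overlap does not measure the share of either cell type. B cell markers summed to 24.6 to 37.8, 102.1 to 119.1 and 108.6 to 197.9 CPM in the same order, below spleen in each subset, neutrophil markers to at most 13.9 CPM against 16.5 to 108 CPM in spleen, and T cell markers to 5.95 to 27.4 CPM against 1.80 to 9.47 CPM in spleen.

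*Cd40* had 356, 627 and 596.5 CPM in MLN cDC1s against 156, 107 and 160.0 CPM in spleen cDC1s, with a log2 fold change of 1.90 ± 0.32 (adjusted p = 0.00329). In T-bet- cDC2s it had 618 and 520.0 CPM against 192, 223.5 and 185 CPM, with 1.51 ± 0.34 (adjusted p = 0.02), and in T-bet+ cDC2s 246 and 614.5 CPM against 166.5, 141 and 188 CPM, with 1.38 ± 0.34 (adjusted p = 0.034). No MLN library overlapped a spleen library of any subset. The cDC1 call held without each of the 16 libraries. The T-bet- call was lost without MLN T-bet- replicate 1 or 2 (adjusted p = 0.162 and 0.0712) or spleen T-bet- replicate 1 or 2 (0.0607 and 0.0557). The T-bet+ call was lost without spleen T-bet+ replicate 1, 2 or 3 (0.11, 0.104 and 0.0719), and without MLN T-bet+ replicate 2 the value itself fell to 0.57 (0.564). With the GC class as a term, T-bet+ cDC2s gave 1.40 (adjusted p = 0.1).

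*Havcr2* fell to 408, 156 and 212 CPM in MLN cDC1s, a log2 fold change of -1.69 ± 0.37 (adjusted p = 0.0129) against spleen, and to 100.2 and 90.2 CPM in T-bet- cDC2s, with -2.23 ± 0.44 (adjusted p = 0.0108). T-bet+ cDC2s gave -1.07 ± 0.42 (adjusted p = 0.126). The cDC1 call was lost without MLN cDC1 replicate 2 or 3 (adjusted p = 0.0652 and 0.0644) or spleen cDC1 replicate 2 (0.0505), and the T-bet- call without either MLN T-bet- library (0.104 and 0.101). *Cd86* was also lower in MLN cDC1s, by -0.87 ± 0.26 (adjusted p = 0.0451). This call was near the threshold and held only without spleen T-bet- replicate 1 or 3 or MLN cDC1 replicate 1, with an adjusted p of 0.0522 to 0.184 when any 1 of the other 13 libraries was left out. *Cd80* gave -0.70 ± 0.31 (adjusted p = 0.145) in cDC1s and -1.07 ± 0.36 (adjusted p = 0.0893) in T-bet- cDC2s and did not pass in either.

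Both PD-1 ligands, *Tnfsf9* and *Cd70* rose in MLN cDC1s. *Pdcd1lg2* went from at most 3.19 CPM in spleen cDC1s to 50.1, 168 and 141 CPM in MLN cDC1s, a log2 fold change of 5.80 ± 0.51 (adjusted p = 9.2e-05), which is 55.7-fold. *Cd274* rose by 1.78 ± 0.34 (adjusted p = 0.0067), and *Tnfsf9*, with 42.6, 72.8 and 116.5 CPM in MLN cDC1s, by 1.94 ± 0.33 (adjusted p = 0.00366). These 3 calls held without each of the 16 libraries. *Cd70* reached 3.81, 9.71 and 9.98 CPM in MLN cDC1s and 3.83 and 3.6 CPM in T-bet- cDC2s, with log2 fold changes of 2.24 ± 0.61 (adjusted p = 0.0307) and 2.44 ± 0.67 (adjusted p = 0.0461). The first was lost without MLN cDC1 replicate 2 or 3 (adjusted p = 0.112 and 0.105) or spleen cDC1 replicate 1 or 2 (0.123 and 0.113). The second was lost without any of 12 libraries (0.0531 to 0.207), and held without MLN T-bet+ replicate 1 or 2, MLN cDC1 replicate 1 or spleen cDC1 replicate 3. In cDC2s, *Pdcd1lg2* and *Cd274* were above spleen in every MLN library but did not pass, with log2 fold changes of 0.71 ± 0.45 and 0.70 ± 0.37 in T-bet- cDC2s (adjusted p = 0.343 and 0.249) and 0.92 ± 0.45 and 0.90 ± 0.37 in T-bet+ cDC2s (0.207 and 0.137). *Icosl* gave 1.31 ± 0.43 (adjusted p = 0.0607) in cDC1s, and without MLN cDC1 replicate 1 or spleen cDC1 replicate 3 it passed (adjusted p = 0.00878 and 0.0205), as it did with DESeq2 (0.026). In T-bet- cDC2s *Icosl* gave 1.39 ± 0.47 (adjusted p = 0.0929), and 0.0303 without MLN cDC1 replicate 1. *Tnfsf4* was lower in both MLN T-bet+ libraries than in every spleen T-bet+ library (-2.02 ± 0.58 (adjusted p = 0.0583)), and passed with DESeq2 (0.00833) or without spleen T-bet- replicate 1 or 3 (0.044 and 0.0386).

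**Figure D3:**
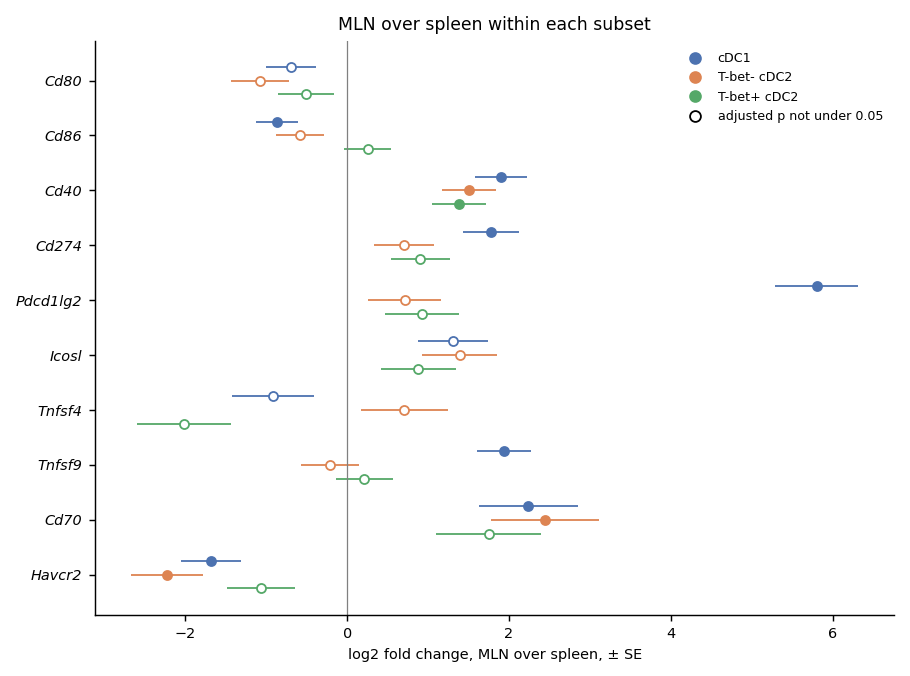
Log2 fold change of MLN over spleen (horizontal axis) ± SE for each of the 10 genes, with a colour for each subset (blue cDC1s, orange T-bet- and green T-bet+ cDC2s) and filled points for an adjusted p under 0.05. *Cd40* was filled and above 1 in all 3 subsets, and *Pdcd1lg2* in cDC1s, at 5.80, lay farthest from 0.

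Genes of mature and migratory DCs also differed between the tissues, and most of those tested were higher in MLN. Of 19 such genes tested, from a list of 20, 14 passed as higher in MLN and 1 as lower in cDC1s, 13 and 0 in T-bet- cDC2s, and 12 and 1 in T-bet+ cDC2s, with median log2 fold changes of 2.28, 3.19 and 2.78. In spleen, 1 of the 19 was higher and 3 lower in T-bet+ than T-bet- cDC2s, 2 and 7 for T-bet+ cDC2s over cDC1s, and 1 and 5 in T-bet- cDC2s over cDC1s. The 20 genes summed to 10140 to 11050 CPM in spleen cDC1s and 10750 to 30450 CPM in MLN cDC1s. In T-bet- cDC2s the sums were 11010 to 13110 CPM in spleen and 26370 to 28460 CPM in MLN. In T-bet+ cDC2s they were 16000 to 16720 CPM and 9360 to 30570 CPM. *Ccr7* had 2556, 9240.0 and 9011 CPM in MLN cDC1s, 8785 and 9742 CPM in T-bet- cDC2s and 2173 and 7714 CPM in T-bet+ cDC2s. *Fscn1*, an actin-bundling protein of mature DCs, had 213, 1317 and 1374, 272 and 608 and 95.6 and 419 CPM in the same order. Spleen T-bet+ cDC2s had 4218, 4014 and 4537 CPM of *Ccr7* and 81.85, 82.95 and 130.5 CPM of *Fscn1*. MLN T-bet+ replicate 1 was thus below spleen in *Ccr7* and within its range in *Fscn1*. It still exceeded every spleen T-bet+ library in *Cd40*, *Cd274*, *Pdcd1lg2* and *Icosl*, but not in *Cd70*. Every other MLN library was above spleen of its subset in *Ccr7* and *Fscn1*. *Cd83*, also in the list, went the other way and was lower in every MLN library than in any spleen library of its subset. In cDC1s it had 2838, 1754 and 3291 CPM in MLN against 6375, 6367 and 5004 CPM in spleen. T-bet- cDC2s had 1987 and 3963 CPM of it in MLN against 4726, 5741 and 6058 CPM in spleen. In T-bet+ cDC2s these were 3802 and 3916 CPM against 9624, 10040 and 8275 CPM. Replicate 1 of MLN cDC1s and replicate 1 of MLN T-bet+ cDC2s were the low libraries of their subsets in *Ccr7* and *Fscn1*. For *Cd83* the low MLN cDC1 library was replicate 2. In both subsets replicate 1 was also the low library in *Cd40*, *Cd274*, *Pdcd1lg2*, *Icosl* and *Cd70* and the high one in *Havcr2*. It was the high one in *Cd80* too (22.1 against 12.1 and 19.9 CPM in cDC1s, 40.7 against 24.4 CPM in T-bet+ cDC2s). *Cd86*, *Tnfsf4* and *Tnfsf9* did not place it alike in the subsets. The deviations of these same-numbered libraries from their group means correlated at 0.657 within MLN, so the subsets may not show this pattern independently. The share of mature DCs in each library was not measured, and its part in the tissue differences was not tested.

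Without those 2 libraries, which were singled out with their values known, *Pdcd1lg2* in cDC1s was 6.12 and *Cd40* 2.07, and *Icosl* passed in cDC1s (1.63, adjusted p = 0.0109) and in T-bet- cDC2s (1.37, 0.0401). For T-bet+ cDC2s, which then kept 1 MLN library whose spread was taken from the other groups, *Cd40* was 1.97 (adjusted p = 0.000701), *Cd274* 1.25 (0.0403) and *Cd70* 2.52 (0.0261). Within MLN, *Pdcd1lg2* and *Cd70* were then lower in T-bet- cDC2s than in cDC1s (-1.24, adjusted p = 0.0405, and -1.32, 0.0408), and *Cd86* was -1.23 (0.0154).

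**Figure D4:**
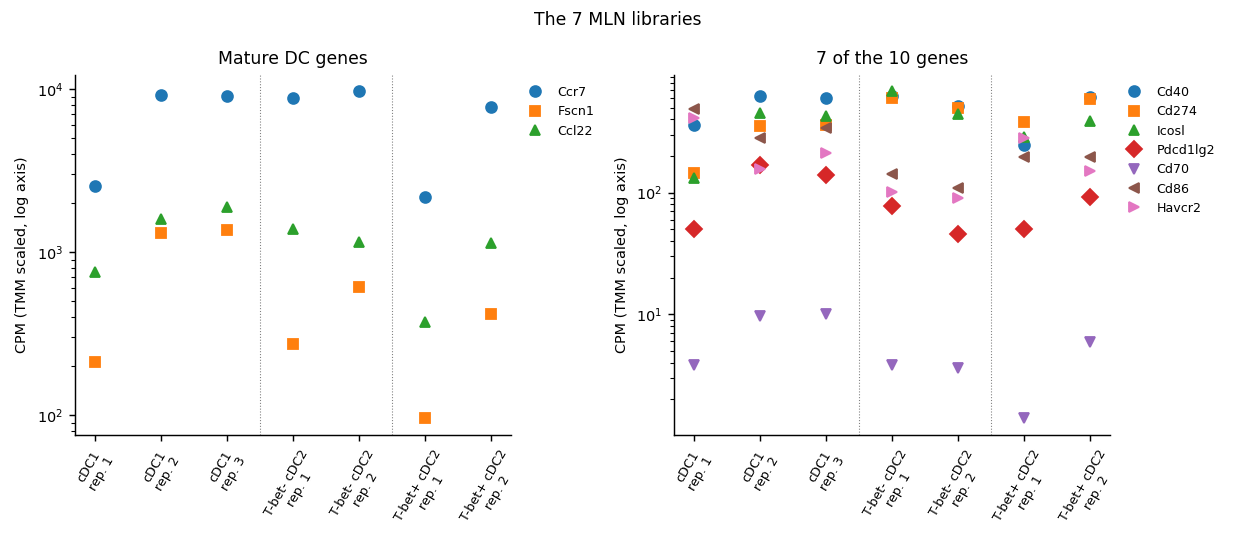
Levels in CPM (log vertical axis) of *Ccr7*, *Fscn1*, *Ccl22* and 7 of the 10 genes in the 7 MLN libraries. In cDC1s and in T-bet+ cDC2s, replicate 1 lay below the other libraries of its subset for *Ccr7*, *Fscn1*, *Ccl22*, *Cd40*, *Cd274*, *Pdcd1lg2*, *Icosl* and *Cd70*, and above them for *Havcr2*.

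Whether the subset differences themselves differed between tissues was tested in a fit of all 16 libraries. For T-bet+ over T-bet- cDC2s, 0 of the 10 genes passed, where 0.00595% of the 16795 genes tested did. *Tnfsf4* had an unadjusted p of 0.00354, with a difference of 2.73 ± 0.78 on the log2 scale (spleen minus MLN, adjusted p = 0.784). It was the only 1 of the 10 with an unadjusted p under 0.05, and DESeq2 called 0 of them. The comparisons with cDC1s were tested in the same way after the data were seen. In each of them 1 of the 10 passed, where 0.0893% of all genes did for T-bet+ cDC2s and 0.0357% for T-bet- cDC2s. That gene was *Pdcd1lg2*, whose excess over cDC1s was larger in spleen than in MLN by 4.88 ± 0.68 (adjusted p = 0.0183) in T-bet+ cDC2s and by 5.09 ± 0.68 (adjusted p = 0.0119) in T-bet- cDC2s. The T-bet+ value was lost without MLN cDC1 replicate 3 (4.75, adjusted p = 0.0641) or spleen cDC1 replicate 1 (4.77, 0.0613) and with the GC class as a term (5.04, 0.0549). The T-bet- value was lost without either MLN T-bet- library (5.46, 0.155, and 4.71, 0.157) or spleen cDC1 replicate 1 (4.99, 0.0575). *Tnfsf9* gave 1.73 ± 0.49 (adjusted p = 0.24) and 2.15 ± 0.49 (adjusted p = 0.202), and both passed without MLN cDC1 replicate 1 (1.99, adjusted p = 0.0478, and 2.35, 0.0475).

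Related genes were taken from 4 further lists. Among 16 tested genes of other B7, butyrophilin, nectin and adhesion molecules, 0 were higher and 4 lower in splenic T-bet+ than T-bet- cDC2s. They were *Lilrb4a*, an inhibitory immunoglobulin-like receptor (-3.38 ± 0.55, adjusted p = 0.00787), *Ceacam1*, an adhesion molecule described as a ligand of TIM-3 (-1.38 ± 0.27, 0.0195), *Cd24a* (-0.79 ± 0.19, 0.0451) and *Vsir*, encoding the inhibitory ligand VISTA (-0.75 ± 0.18, 0.0446). The median of the 16 was -0.65. Over cDC1s, 6 were higher and 3 lower in T-bet+ cDC2s and 8 higher and 2 lower in T-bet- cDC2s, with *Ceacam1* at 2.70 ± 0.29 (0.000209) and 4.09 ± 0.31 (2.51e-05) and *Cd24a* at -4.19 ± 0.22 (3e-06) and -3.41 ± 0.21 (7.39e-06). In MLN over spleen, 5 rose in cDC1s and 3 in either cDC2 subset, and 0 fell, and *Cd200*, an inhibitory ligand that is also in the mature DC list, was higher in all 3 (1.99 ± 0.52, 2.90 ± 0.56 and 2.42 ± 0.56, with adjusted p = 0.0256, 0.01 and 0.0269).

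Of 11 other TNF family ligands tested in spleen, 0 were higher and 3 lower in T-bet+ than T-bet- cDC2s. The only one of the 3 averaging 50 or more normalized counts was *Tnfsf13b*, encoding the B cell survival factor BAFF (-3.32 ± 0.51, adjusted p = 0.00618). Over cDC1s, 4 were higher and 2 lower in T-bet+ cDC2s and 4 higher and 0 lower in T-bet- cDC2s. *Tnfsf14*, encoding LIGHT, rose in both (4.99 ± 0.43, 5.15e-05, and 4.49 ± 0.42, 8.94e-05), from 0.741 to 1.55 CPM in cDC1s to 26.4 to 40.2 CPM in T-bet+ and 15.3 to 29.3 CPM in T-bet- cDC2s. *Ltb*, encoding lymphotoxin beta, was also higher (4.84 ± 0.81, 0.00274, and 3.14 ± 0.75, 0.019), although it ran from 40.9 to 416 CPM within T-bet- cDC2s. In MLN over spleen 0 rose, while 2 fell in cDC1s, 2 among T-bet- cDC2s and 0 among T-bet+ cDC2s, where the last comparison had 6 genes at an unadjusted p under 0.05 and 2 with DESeq2.

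Of 17 genes of the path from CD40 to NF-kB, 0 passed between the splenic cDC2 subsets with edgeR (3 at an unadjusted p under 0.05, 0 with DESeq2), while 7 were higher and 0 lower in T-bet+ cDC2s than in cDC1s and 6 higher and 1 lower in T-bet- cDC2s. *Nfkb1* changed most (2.52 ± 0.18, adjusted p = 1.73e-05, and 2.16 ± 0.18, 4.67e-05). The others that rose in T-bet+ cDC2s included *Nfkbie* (1.36 ± 0.20, 0.00149) and *Tnfaip3* (1.28 ± 0.36, 0.0352), both known as inhibitors of the path, and *Bcl2a1b*, a survival gene downstream of it (1.48 ± 0.25, 0.00301). In MLN over spleen, 7 rose and 0 fell in cDC1s, with *Traf3* (1.96 ± 0.38, 0.00671) and *Birc3* (1.84 ± 0.35, 0.00669) first, both restrainers of the noncanonical branch. In T-bet- cDC2s 2 rose and 1 fell, and in T-bet+ cDC2s 0 passed with edgeR (6 at an unadjusted p under 0.05, 4 with DESeq2). Of 11 genes between the interferon gamma receptor and PD-L1, *Jak2* was the only one that passed between splenic cDC2 subsets (0.87 ± 0.21, adjusted p = 0.049). *Jak2* was higher in MLN in all 3 subsets (1.45 ± 0.25, 1.86 ± 0.27 and 1.36 ± 0.27, with adjusted p = 0.00412, 0.00305 and 0.0142). *Irf1*, a factor that drives *Cd274*, rose in MLN cDC1s (2.05 ± 0.40, 0.00727) and T-bet- cDC2s (1.63 ± 0.43, 0.0401). *Ifngr1*, a gene of the receptor itself, fell in both (-1.305 ± 0.299, 0.0152, and -1.451 ± 0.346, 0.0258). In all, 3 of the 11 rose and 1 fell in MLN cDC1s, 2 and 1 in T-bet- cDC2s and 2 and 0 in T-bet+ cDC2s. In spleen, 1 was higher and 1 lower in T-bet+ cDC2s than in cDC1s, and in T-bet- cDC2s 0 passed with edgeR (2 at an unadjusted p under 0.05, 1 with DESeq2). In MLN, T-bet+ cDC2s over cDC1s gave 1 higher and 1 lower of the B7 and adhesion list, 3 and 0 of 10 TNF family ligands and 1 and 0 of the CD40 list, and 0 of the interferon gamma and mature DC lists (1 and 0 at an unadjusted p under 0.05, 0 with DESeq2). T-bet- cDC2s over cDC1s gave 2 and 1, and 2 and 0, of the first 2 lists and 0 of the other 3 (2, 2 and 0 at an unadjusted p under 0.05, and 1, 1 and 0 with DESeq2). None of the 5 lists had a gene past the threshold in T-bet+ over T-bet- cDC2s with edgeR, where they held 0 to 4 genes each at an unadjusted p under 0.05 and 0 or 1 with DESeq2.

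The genes whose log2 CPM followed each gene most closely were found over the 16 libraries among 11080 genes, as a description, since all share the same libraries and the same difference between tissues. *Cd40* was closest to *Ikzf4* (Pearson r = 0.984) and also to *Anxa3* (0.977), and *Cd86* to *Klri1* (0.962) and *Gpr171* (0.961). *Cd274* was closest to *Slc7a11* (0.964), *Pdcd1lg2* to *Cercam* (0.955), *Il21r* (0.952) and *Stat4* (0.95), and *Havcr2* to *Ifngr1* (0.952) and *Gm2a* (0.952). *Cd80* was closest to *Stk17b* (0.956), *Icosl* to *Atg14* (0.95) and *Cd70* to *Cmc2* (0.971). *Tnfsf4*, read at few counts, reached 0.866 with *Disp1*. Among the 10 genes, *Cd274* and *Pdcd1lg2* had r = 0.851, *Icosl* had 0.826 with both *Cd274* and *Cd40*, while the most negative pairs were *Havcr2* with *Cd40* (-0.888) and with *Icosl* (-0.849).

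Chromatin at these genes was then compared between splenic subsets in windows of 150 bases at peak summits. To be called, a window needed a log2 fold change over 0.5 in either direction besides an adjusted p under 0.01. Of the 139 windows in 60 peaks, 138 were tested. In T-bet+ over T-bet- cDC2s 14 windows were called (13 more accessible, 1 less), which is 10.1% of those tested, where 6.28% of all 166547 windows were called. In T-bet+ cDC2s over cDC1s 54 were called (41 more, 13 less, 39.1%) where 23.0% of all windows were, and in T-bet- cDC2s over cDC1s 36 (21 more, 15 less, 26.1%) where 17.9% were. The median log2 fold change of the windows was 0.32, 0.49 and 0.22, against -0.012, -0.005 and 0.012 over all windows. Neighbouring windows can overlap and share reads, so they are not independent, and with 2 libraries per subset 1 library left out moved the counts to 9 to 16, 38 to 57 and 21 to 41. *Tnfsf4* held the most windows called between the cDC2 subsets, with 6 of its 18 called as more accessible in T-bet+ cells and 0 as less.

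The windows printed here, from the plus strand of GRCm38 (mm10), were chosen after their values were seen. They are the windows with the lowest adjusted p at *Tnfsf4*, *Cd274*, *Pdcd1lg2* and *Cd86*, and the start windows of *Pdcd1lg2* and *Havcr2*, where accessibility and mean RNA ran in opposite directions between cDC1s and cDC2s. Positions are distances from the start of the gene to the middle of the window, negative upstream. Capitals mark a match to one of 7 searched motifs on either strand, which were T-box TCACACCT, Runx TGTGGTT, NF-kB GGGANTTTC, interferon response GAAANNGAA, AP-1 TGANTCA, PU.1 GAGGAAGT and C/EBP TTGCNNAA.
*Tnfsf4* upstream, -20012, chr1:161375322-161375471: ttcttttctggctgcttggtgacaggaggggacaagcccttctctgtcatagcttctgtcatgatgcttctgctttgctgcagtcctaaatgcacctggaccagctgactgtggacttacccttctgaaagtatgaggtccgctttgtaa
*Cd274* intron, 7648, chr19:29375028-29375177: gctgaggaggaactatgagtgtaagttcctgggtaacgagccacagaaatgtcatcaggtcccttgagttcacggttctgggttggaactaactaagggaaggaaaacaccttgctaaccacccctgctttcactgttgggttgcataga
*Pdcd1lg2* upstream, -4683, chr19:29406161-29406310: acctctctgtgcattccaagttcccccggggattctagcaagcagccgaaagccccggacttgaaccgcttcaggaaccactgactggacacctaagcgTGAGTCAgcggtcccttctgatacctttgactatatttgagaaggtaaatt
*Pdcd1lg2* start, -36, chr19:29410808-29410957: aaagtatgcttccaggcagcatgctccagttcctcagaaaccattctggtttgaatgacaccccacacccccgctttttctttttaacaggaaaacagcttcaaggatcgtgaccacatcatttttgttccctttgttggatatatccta
*Cd86* intron, 26074, chr16:36639932-36640081: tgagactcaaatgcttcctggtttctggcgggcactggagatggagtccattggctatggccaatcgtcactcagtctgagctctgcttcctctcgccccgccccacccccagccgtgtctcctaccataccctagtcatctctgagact
*Havcr2* start, -102, chr11:46454758-46454907: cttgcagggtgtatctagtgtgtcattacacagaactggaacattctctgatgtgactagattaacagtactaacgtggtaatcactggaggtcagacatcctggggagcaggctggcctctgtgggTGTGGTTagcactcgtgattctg
An AP-1 match stood in the upstream *Pdcd1lg2* window and a Runx match at the *Havcr2* start, and the other 4 held none of the 7. Over all 139 windows, 10.8% held the AP-1 letters and 7.19% the interferon response letters, where 7.9% and 5.61% of all 177956 windows did. The shares were 4.32% against 5.23% for Runx, 1.44% against 0.892% for NF-kB, 3.6% against 5.5% for PU.1 and 7.19% against 5.89% for C/EBP. The T-box letters were in 0.0% of the 139 and in 0.714% of all windows. A match is a description and not a bound site.

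At *Tnfsf4*, the window at -20012 had 14.5 and 15.4 CPM of ATAC-seq reads in cDC1s, 9.37 and 7.59 CPM in T-bet- cDC2s and 39.9 and 36.1 CPM in T-bet+ cDC2s. It was the most accessible in both T-bet+ libraries and the least in both T-bet- libraries. The log2 fold change in T-bet+ cDC2s was 2.17 ± 0.21 (adjusted p = 1.03e-12) over T-bet- cDC2s and 1.34 ± 0.20 (adjusted p = 4.79e-08) over cDC1s. Another window, at -33579, gave 2.00 ± 0.26 (adjusted p = 3.01e-08) over T-bet- cDC2s, and one in an intron, 16863 bases after the start, 1.51 ± 0.28 (adjusted p = 3.92e-05). The *Tnfsf4* window nearest the start, 4906 bases into the gene, was not called in any comparison. The RNA of this gene was highest in the same subset in spleen, at the low level given above.

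At *Cd274*, the intronic window had 8.08 and 10.1 CPM in cDC1s, 4.44 and 5.87 CPM in T-bet- cDC2s and 26.2 and 26.0 CPM in T-bet+ cDC2s, with a log2 fold change of 2.33 ± 0.24 (adjusted p = 1.44e-11) between the cDC2 subsets, whose *Cd274* RNA overlapped. Another intronic window, 16102 bases after the start, was more accessible in both cDC2 subsets than in cDC1s (2.28 ± 0.26 (adjusted p = 2.66e-11) in T-bet+ and 1.66 ± 0.27 (adjusted p = 7.15e-07) in T-bet-). The windows of *Pdcd1lg2* went both ways. Its start window had 6.89 and 9.66 CPM in cDC1s, 2.47 and 2.13 CPM in T-bet- and 1.09 and 1.25 CPM in T-bet+ cDC2s, and was less accessible in T-bet+ cDC2s (-2.80 ± 0.39 (adjusted p = 1.2e-08)) and T-bet- cDC2s (-1.85 ± 0.35 (adjusted p = 2.48e-05)) than in cDC1s, the subset with the least *Pdcd1lg2* RNA in spleen. The window at -4683 had 36 and 55 reads in cDC1s, 17 and 28 in T-bet+ cDC2s and 2 and 0 in T-bet- cDC2s. It was called in all 3 comparisons, and from the summed reads it was 21.6-fold higher in T-bet+ than T-bet- cDC2s (95% exact interval 5.64 to 184) and 50.9-fold higher in cDC1s than in T-bet- cDC2s (13.7 to 426), where the intervals cover counting error only. Windows in introns, 7175 and 20222 bases after the start, were higher in T-bet+ cDC2s than in cDC1s (1.60 ± 0.21 (adjusted p = 4.09e-09) and 1.75 ± 0.23 (adjusted p = 1.53e-09)) and in T-bet- cDC2s than in cDC1s (0.85 ± 0.22 (adjusted p = 0.00179) and 1.25 ± 0.23 (adjusted p = 1.29e-05)).

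At *Cd86*, 11 of 22 windows (50.0%) were called in T-bet+ cDC2s over cDC1s, 5 more and 6 less accessible, where 23.0% of all windows were called. The intronic window 26074 bases after the start had 19.8 and 20.9 CPM in cDC1s, 7.52 and 11.1 CPM in T-bet- and 5.55 and 3.45 CPM in T-bet+ cDC2s. It was the only window of the 10 genes called as less accessible in T-bet+ than T-bet- cDC2s (-1.06 ± 0.27 (adjusted p = 0.00435)), and it was lower than in cDC1s in both subsets (-2.18 ± 0.26 (adjusted p = 1.52e-10) and -1.11 ± 0.24 (adjusted p = 0.000168)). The window at the *Cd86* start was not called, at 0.49 ± 0.20 (adjusted p = 0.058) in T-bet+ cDC2s over cDC1s. The window at -1031, with 1.54 and 0.914 CPM in cDC1s, 8.01 and 4.55 CPM in T-bet- and 7.61 and 7 CPM in T-bet+ cDC2s, went against the RNA (2.54 ± 0.39 (adjusted p = 1.81e-07) in T-bet+ cDC2s over cDC1s).

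The *Havcr2* start window had 30.1 and 30.2 CPM in cDC1s, 53.1 and 49.8 CPM in T-bet- and 73.2 and 59.8 CPM in T-bet+ cDC2s. It was more accessible in cDC2s (1.14 ± 0.16 (adjusted p = 2.19e-08) in T-bet+ and 0.77 ± 0.16 (adjusted p = 0.000125) in T-bet-), whereas *Havcr2* RNA was higher in every cDC1 library. At *Cd80*, 5 of 18 windows (27.8%) gained accessibility in T-bet+ cDC2s over cDC1s and 0 lost it, where 23.0% of all windows were called in either direction. The lowest adjusted p was that of the window 3228 bases after the start (1.88 ± 0.21 (adjusted p = 1.15e-11)), and 0 called between the cDC2 subsets. At *Icosl*, overlapping windows 2130 and 2223 bases after the start were more accessible in T-bet+ than T-bet- cDC2s (1.79 ± 0.35 (adjusted p = 0.000161) and 1.76 ± 0.35 (adjusted p = 0.000183)), and one 23587 bases after it had 19.8 and 23.1 CPM in cDC1s and no more than 3.35 CPM in any cDC2 library. *Cd40* had 1 window called between the cDC2 subsets, 921 bases after the start (1.25 ± 0.24 (adjusted p = 0.000101)). At *Tnfsf9*, whose RNA differed between all subsets of the spleen, the start window was not called (-0.32 ± 0.24 (adjusted p = 0.441) between the cDC2 subsets), and the window 3714 bases after the start was more accessible in both cDC2 subsets than in cDC1s (1.96 ± 0.29 (adjusted p = 8.52e-08) in T-bet+ and 1.16 ± 0.31 (adjusted p = 0.00254) in T-bet-). Both tested windows of *Cd70*, at -17320 and -17472, were not called in any comparison.

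**Figure D5:**
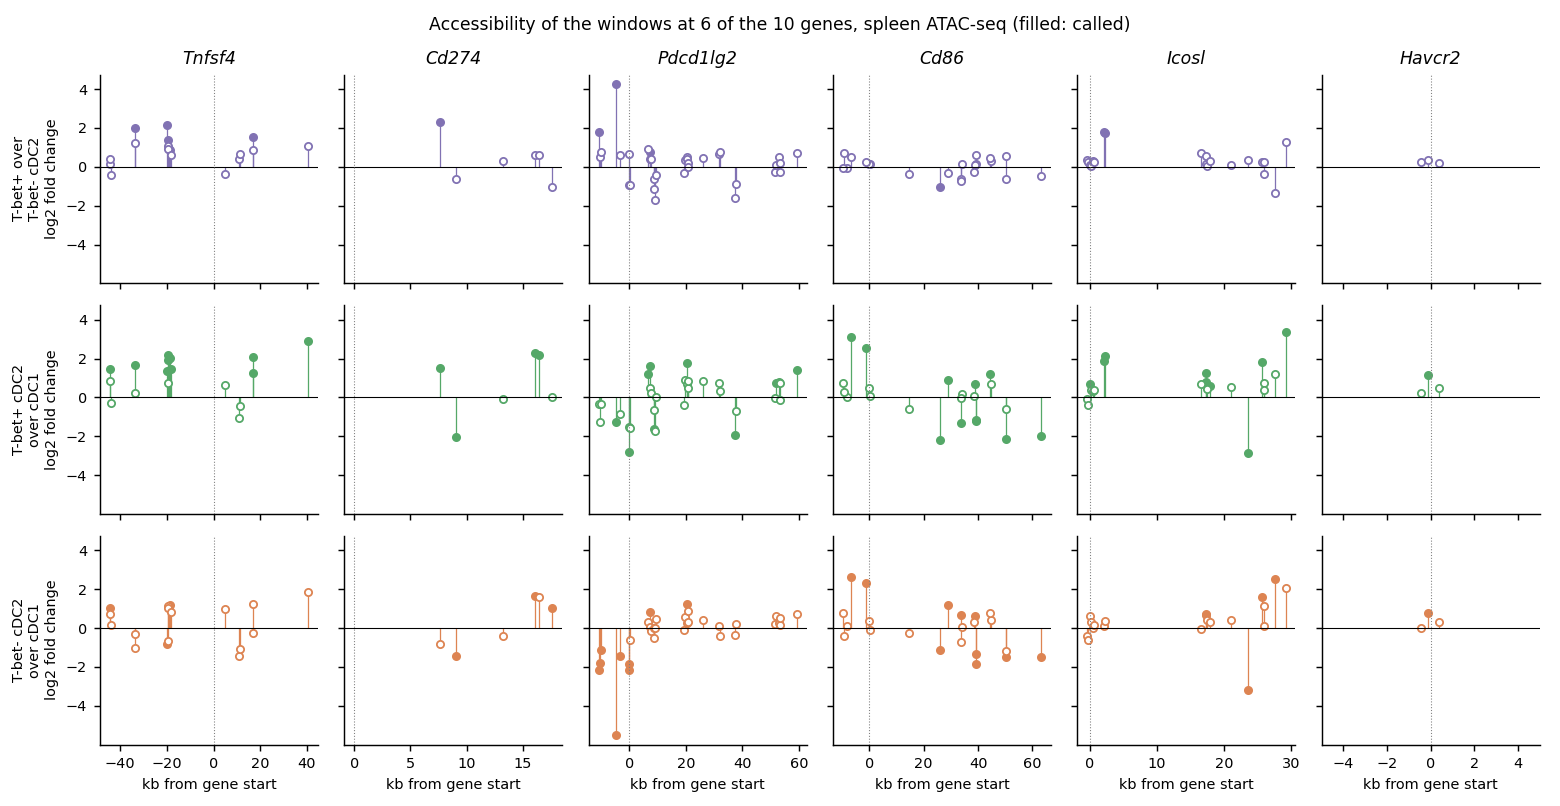
Log2 fold change of ATAC-seq windows (vertical axis) against distance from the start of the gene in kb (horizontal axis) for 6 genes and 3 comparisons of splenic subsets, with filled points for called windows. The called *Tnfsf4* windows in T-bet+ over T-bet- cDC2s all lay above 0, and the *Cd274* window at 7.65 kb reached 2.33. The *Pdcd1lg2* window at -4683 rests on 2 and 0 reads in T-bet- cDC2s, so its plotted values depend on the prior count.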

How the data were processed

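RNA-seq counts of 16 libraries (9 spleen, 7 MLN) and ATAC-seq counts of 6 spleen libraries were analysed as the authors deposited them. Per the authors, RNA-seq reads were mapped by HISAT2 2.1.0 (mm10), reduced to unique alignments with SAMtools 1.9 and assigned to GENCODE vM17 genes by Rsubread, whose raw counts were deposited without normalization. Whether strand was used is not given in the sources used here. For ATAC-seq they aligned reads with Bowtie2 2.2.5, shifted them by 4 or 5 bases, called peaks from the joined replicates with MACS2 2.1.1.20160309 and deposited read counts per window of 150 bases at a summit and per peak. The deposited peak file holds a score that is a constant 0, and the deposited summit file a -log10 p from MACS2. Neither was used.

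Features that passed filterByExpr in edgeR 4.0.16 (R 4.3.3) were scaled by TMM and tested by quasi-likelihood with Benjamini-Hochberg adjustment over all features. All libraries of a tissue or assay entered 1 fit, and all 16 RNA-seq libraries entered the fits between tissues. Residual degrees of freedom were 6 in spleen, 4 in MLN, 10 over both tissues and 3 for ATAC-seq. Alternatives were DESeq2 1.42.0, other normalizations and filters, a replicate block, library class and each library left out. No 2 libraries held identical counts. The steps were tested on simulated counts whose changes were larger than most reported here, so smaller changes were not covered.

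Groups follow the labels. One sentence of the study's methods gives the RFP signs the other way round. Each window went to the GENCODE M21 gene nearest to its peak, at most 50000 bases away and with ties kept (bedtools 2.31.1). Promoters reached 2000 bases from a transcript start. Sequences are from the RefSeq GRCm38.p6 genome. The genes and lists were chosen with earlier results of these data known. Of a list, up to 4 genes with the largest log2 fold change among those that passed, averaging 50 or more normalized counts, are named. Of the windows, the one with the lowest adjusted p and the one nearest the start of each gene are named, and other windows were chosen after their values were seen. Correlations used log2 of CPM plus 0.1 over genes that averaged 50 or more normalized counts. The library class was set within each tissue, from each library's deviation from the gene means of that tissue. A library was of the higher class if the Spearman correlation of this deviation with GC content was over 0.1. GC content was that of the most GC-rich 100 bases of each transcript. The lists were the 10 genes, other B7 and adhesion molecules, other TNF family ligands, CD40 to NF-kB signalling, interferon gamma to PD-L1 signalling and mature DCs. Figures were drawn with matplotlib 3.10.9.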

Additional observations from a re-analysis of the deposited data

Results flagged for a closer look

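The excess of *Pdcd1lg2* RNA in cDC2s over cDC1s differed between the tissues by a test of the difference itself added once the values were known. The log2 fold change over cDC1s was larger in spleen than in MLN by 4.88 ± 0.68 (adjusted p = 0.0183, edgeR) in T-bet+ cDC2s and by 5.09 ± 0.68 (adjusted p = 0.0119) in T-bet- cDC2s. Both tests share the cDC1 libraries, in which *Pdcd1lg2* went from at most 3.19 CPM in all 3 spleen libraries to at least 50.1 CPM in all 3 MLN libraries, while every cDC2 library of either tissue lay between 33.0 and 91.5 CPM.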

How the results depend on the processing

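Of the log2 fold changes of the 10 genes under the alternatives, 2379 stayed on their side of the threshold, of which 2305 kept their sign and 74 changed it, 60 passed only under the alternative and 72 only in the main analysis. The 74, none past the threshold in either analysis, had values of 0.019 to 0.705 in size in the main analysis. Counts of the 10 genes past the threshold moved in the following and other cases. Beyond the fewer libraries or genes that a setting itself uses, the cause was not tested. For splenic T-bet+ over T-bet- cDC2s (1 in the main analysis), DESeq2, a minimum of 10 counts and the newer quasi-dispersion estimate gave 2. The GC class as a term and the replicate block gave 0 there. For T-bet+ cDC2s over cDC1s (5), the higher class alone gave 8. In splenic T-bet- cDC2s over cDC1s (4), *Havcr2* also passed with DESeq2 (adjusted p = 0.0433). With edgeR it passed there with the GC class as a term (0.018) and with no filter (0.0132). For MLN T-bet- cDC2s over cDC1s (1), DESeq2 gave 3, no filter 2 and leaving out the 2 MLN libraries low in *Ccr7* and *Fscn1* 3. In cDC1s between tissues (7), *Icosl* also passed under 6 of 8 alternatives, and *Cd86* was lost with a minimum of 10 counts (edgeR, adjusted p = 0.0583). For MLN over spleen, DESeq2 gave 5 in T-bet- cDC2s (3). Of the 10 genes in T-bet+ cDC2s (1), DESeq2 gave 3, a minimum of 10 counts, the newer estimate and no filter gave 2, the GC class and the replicate block 0, and leaving out those 2 libraries 3. For the difference between tissues in T-bet+ cDC2s over cDC1s (1) the GC class gave 0 and no filter 2, and in T-bet- cDC2s over cDC1s (1) DESeq2, no filter and leaving out the 2 libraries gave 2. Windows called in T-bet+ over T-bet- cDC2s (14) were 28 at an adjusted p under 0.05 with no fold limit and 29 with every window within 50000 bases. In T-bet+ cDC2s over cDC1s (54) they were 35 with whole peaks and 93 with every such window, and in T-bet- cDC2s over cDC1s (36) 23 with DESeq2 and 60.

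Leaving out 1 library at a time gave 0 to 2, 3 to 6 and 4 to 5 of the 10 genes in the 3 spleen comparisons (T-bet+ over T-bet- cDC2s, then each over cDC1s, T-bet+ first), 0 to 0, 0 to 0 and 0 to 1 in MLN, 4 to 8, 0 to 4 and 0 to 2 between tissues (cDC1s, T-bet-, T-bet+), 0 to 0, 0 to 2 and 0 to 2 for the differences between tissues, and 9 to 16, 38 to 57 and 21 to 41 windows.

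Same-numbered spleen libraries of different subsets correlated from -0.74 to 0.431 in their deviations from the group means, so the numbers were not taken to pair libraries in spleen. In MLN, same-numbered T-bet+ and cDC1 libraries correlated at 0.657 and 0.62, and the other same-numbered pairs from -0.137 to 0.207. By the number in the library name, T-bet- and cDC1 libraries correlated at -0.0145 and 0.357. Deviations within a group of 2 libraries mirror each other, so these values are not independent. The main MLN fits took no account of pairing. With the number as a replicate block, *Tnfsf9* between splenic cDC2 subsets was -1.26 (adjusted p = 0.0635), *Cd40* in T-bet+ cDC2s between tissues 1.40 (0.0541), *Cd70* in T-bet- cDC2s 2.50 (0.0553), and *Icosl* 1.33 (0.0499) in cDC1s and 1.59 (0.0473) in T-bet- cDC2s. For MLN T-bet- cDC2s over cDC1s, *Cd86* was -1.55 (0.0725) and 0 genes passed with this block. With the number in the library name as the block, 5 passed there and 3 in MLN T-bet+ cDC2s over cDC1s (0). Crossing the numbers of the T-bet- libraries gave 0, 0 and 0 genes in MLN and 14, 53 and 36 windows.

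Over all genes, the alternatives gave 356 (replicate block) to 1521 (no filter) calls for splenic T-bet+ over T-bet- cDC2s (774), 0 to 554 (no filter) in MLN (0), 409 (GC class) and 2440 (block by library name) for MLN T-bet+ cDC2s over cDC1s (952), 515 (replicate block) and 2477 (block by library name) for T-bet- (885), up to 3532 (DESeq2) for cDC1s between tissues (1961), up to 2435 (no filter) for T-bet- cDC2s (1000), 329 (GC class) to 2875 (no filter) for T-bet+ cDC2s (855), 1 to 186, 1 to 475 and 5 to 261 for the differences between tissues (1, 15 and 6), and 4811 to 18870, 23881 to 53101 and 17054 to 43829 windows (10460, 38316 and 29773), from DESeq2 to the threshold with no fold limit. Groups held 2 or 3 libraries and *Tnfsf4* and *Cd70* were read at few counts, so a difference that did not pass is not shown to be absent.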
